A study of Mus musculus with 6 samples.

Results

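Glycolysis and hypoxia response genes were compared between macrophages grown from 2 kinds of mouse bone marrow cell. The set was chosen by gene symbol: the enzymes of glycolysis, the carriers of glucose and lactate, and targets and sensors of the hypoxia-inducible factor HIF. It holds 36 genes of the 55487 in the deposited table. Of these, 22 are enzymes and carriers of the pathway from glucose to exported lactate, and 14 are regulators of its flux, parts of the oxygen sensor or other HIF targets. The symbol Aldoa is carried by 2 gene models, so 37 table entries matched. The second model (ENSMUSG00000114515.2) had 0 to 19 counts per library and is left out of the counts that follow.

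The starting cells were TpMos and mature Ly6Chi monocytes, sorted from bone marrow. Both were kept for 7 days in medium with serum and CSF-1, a growth factor on which macrophages depend, at 5% CO2, and no other treatment is named. Each group holds 3 SMART-seq v2 libraries, called here TpMo-derived and Ly6Chi-derived replicates 1 to 3. Strain, genotype, age, the CSF-1 concentration of each library and the oxygen level are not given in the sources used here. It is also not stated whether replicates are separate cultures or animals, and the p-values then cover only the spread among these libraries, part or all of which may be technical.

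Glycolysis splits glucose into pyruvate in the cytosol and yields ATP without oxygen. Lactate dehydrogenase turns pyruvate into lactate, which regenerates the NAD+ that the pathway needs, and monocarboxylate carriers export it. When oxygen is scarce, prolyl hydroxylases (the Egln enzymes) no longer mark HIF for destruction through the VHL ubiquitin ligase, and HIF then induces most glycolytic enzymes together with genes of mitophagy, iron handling and collagen modification. Macrophages also use this programme when they are activated by microbial products with oxygen present.

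Libraries held 23765773 to 33042094 counts in the TpMo-derived group and 26804286 to 31820999 in the Ly6Chi-derived group. All 10 macrophage markers were detected, with summed levels of 37866 to 40518 against 29742 to 32979 CPM (counts relative to library totals, which were adjusted by the TMM method). Most of this sum was Lyz2, at 24161 to 26668 against 22123 to 24842 CPM, which did not pass (adjusted p = 0.13 in edgeR). Of the 10 markers 5 were higher in TpMo-derived macrophages, beside 6.54% of all genes tested, and 1 was lower, beside 5.79%. The largest rises were those of C1qb (4.45-fold), Fcgr1 (3.88-fold) and Adgre1 (2.29-fold), and the lower one was Itgam (1.24-fold). Of the markers of other cells, 3 of 10 for neutrophils (Ly6g and Mpo among them), 5 of 8 erythroid (the globins), 4 of 7 for B cells (Cd79a and Pax5), 6 of 8 for T and NK cells (Cd3e), 4 of 7 for dendritic cells (Flt3 and Clec9a), 5 of 6 for mast cells and basophils, and 6 of 8 for stromal and endothelial cells (Col1a1) were at 0 counts in every library. Summed levels of the whole lists still differed, at 29.6 to 36.3 against 58.4 to 64.2 CPM for 10 neutrophil genes and 112 to 160 against 36.3 to 43.1 CPM for 7 dendritic cell genes. Mmp8, at 27.7 to 35.2 against 57.8 to 62.7 CPM, and Bst2, at 111 to 159 against 35.5 to 42.5 CPM, made up nearly all of these sums. The other sums were 1.23 to 3.68 against 0.622 to 1.40 CPM for erythroid genes, 7.28 to 14.1 against 1.71 to 7.87 for B cells, 2.82 to 9.58 against 0.311 to 1.35 for T and NK cells, 0.955 to 3.04 against 0 to 0.436 for mast cells and 0.694 to 1.66 against 0 to 0.373 for stromal and endothelial cells. Cd4, at 9.58, 2.82 and 6.25 against 0, 0 and 0.311 CPM, passed (adjusted p = 0.0064), and so did Pecam1, at 0.694 to 1.17 against 0 to 0.0622 CPM (adjusted p = 0.0356, and 0.0606 to 0.15 with each library left out in turn). Ighm, at 4.77 to 9.76 against 0.399 to 3.61 CPM, and Kit, at 0.955 to 3.04 against 0 to 0.436 CPM, did not overlap between groups and did not pass, and Cd79b overlapped. Mitochondrial transcripts took 1.45% to 1.51% of counts against 1.2% to 1.35%. The part of these differences in the results below was not tested. In bulk RNA, fewer cells of a type and less RNA per cell cannot be told apart.

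Several main isoforms of the pathway, among them Pfkl, Aldoa, Eno1, Ldha and the enzymes Gpi1 and Pgk1, were higher in TpMo-derived macrophages by small margins. The minor isoforms Aldoc and Ldhb were lower by larger ones. Other changed members did not follow this division: Hk3, the main hexokinase, and the abundant mutase Pgam1 were lower, and the minor hexokinase Hk2 was higher. Of the 36 members, 35 had enough counts to be tested, and 17 of them changed (adjusted p under 0.05 in edgeR's quasi-likelihood test, with Benjamini-Hochberg adjustment over 13140 genes), which is 48.6%, beside 12.3% of all genes tested. In TpMo-derived macrophages 10 members were higher, beside 6.54% of all genes, and 7 were lower, beside 5.79%. The median log2 fold change was 0.17 over the members and 0.01 over all genes. Abundant genes pass this test more often: among the 1870 genes that averaged 100 CPM or more, 32.2% changed. Of the 14 enzymes and carriers at that level, 7 were higher (20.3% of genes at that level) and 2 were lower (11.9%). The groups did not overlap in 10 of these 14, beside 52.1% of genes at that level.

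Pathway genes and the other hypoxia genes were counted apart. Of the 22 enzymes and carriers, 8 were higher, 5 were lower and 9 did not pass, and their median log2 fold change was 0.14. Of the other 14 members, 13 were tested, 2 were higher, 2 were lower and 9 did not pass, and their median was 0.27. The shares that changed were thus 59.1% and 30.8%, beside 12.3% of all genes tested. Whether these shares differ from each other was not tested. They also rest on genes of unlike levels: 14 of the 22 enzymes and carriers averaged 100 CPM or more, where 32.2% of all genes changed. Among the other members only Hif1a, P4ha1 and Pdk1 did. The 13 changed enzymes and carriers became 8 without replicate 3 of the TpMo-derived or replicate 1 of the Ly6Chi-derived group, and 7 without Ly6Chi-derived replicate 3. The 4 changed among the other members became 1 without TpMo-derived replicate 3 or any Ly6Chi-derived replicate. Among the 17 changed members, the fold change was under 1.5 in 11 and at least 2 in 4, and those 4, Slc2a6, Aldoc, Ldhb and P4ha2, were all lower in TpMo-derived macrophages. The 3 TpMo-derived libraries lay above all 3 Ly6Chi-derived ones in 16 members, beside 15.3% of all genes, and below them in 7, beside 15.2%. Together, 30.5% of all genes had groups that did not overlap.

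**Figure D1:**
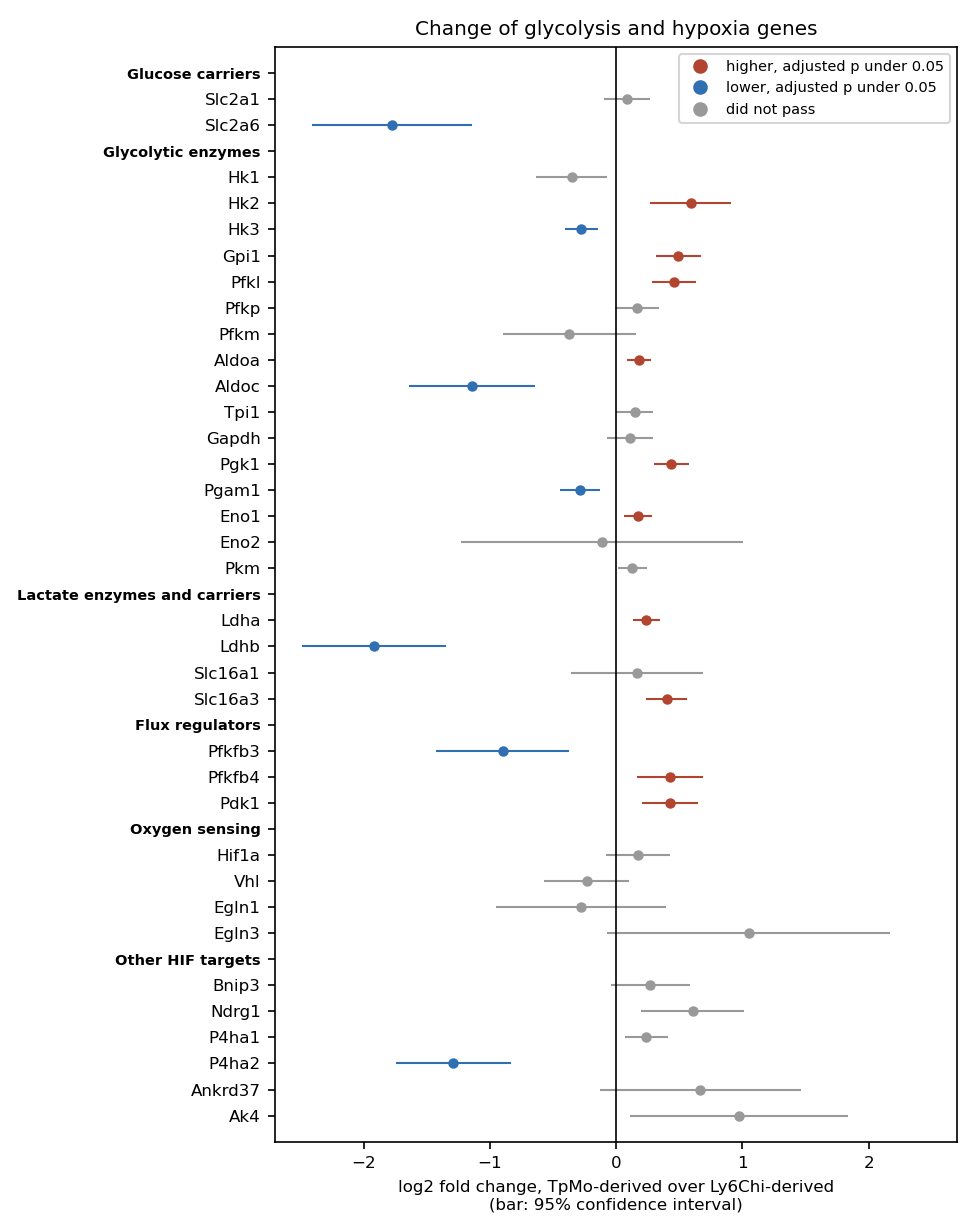
Log2 fold change of each tested member (x axis, TpMo-derived over Ly6Chi-derived) with its 95% interval, grouped by role, with 3 libraries per group. Changes above 0 are mostly small, from 0.17 to 0.59 among the 10 members that were higher, whereas the 7 lower members reach -1.92 for Ldhb.

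HIF binds DNA at a short core, RCGTG, so the windows of 250 bases before the RefSeq transcript start (GRCm38.p6) were searched for ACGTG on either strand (CACGT on the other strand is the same match, and CACGTG holds a match on each strand). In the listing of windows, 35 of the 36 members had an entry. A gene can have several windows, and only the first listed one of each gene was used unless stated. The core was present in 17 of 35 (48.6%), beside 22.2% of the windows of 9347 genes tested and 16.6% of those of all 27025 genes. The set was chosen in part as HIF targets, so a higher share can follow from that choice and says nothing about these macrophages. Over all 51 listed windows of the members, 20 of 35 genes had the core in any window (57.1%), beside 25.4% of genes tested. In the first listed windows, it was in 4 of 10 members that were higher, 4 of 7 that were lower and 9 of 17 that did not pass. The higher members with it were Pgk1, Ldha, Slc16a3 and Hk2, whereas Gpi1, Pfkl, Aldoa, Eno1, Pdk1 and Pfkfb4 had none in their first listed window. The lower members with it were Hk3, Pgam1, Pfkfb3 and P4ha2, whereas Slc2a6, Aldoc and Ldhb had none there. With GCGTG also allowed, 28 of 35 windows held a match (80.0%), beside 56.9% of genes tested. A match to either was in 8 of 10 members that were higher, 7 of 7 that were lower and 12 of 17 that did not pass. Median GC content was 62.8% in the members' windows and 59.6% in those of genes tested. The windows below are those of the higher genes Pgk1, Ldha and Slc16a3 and of the 3 members with the largest falls. Each runs 5′ to 3′ in the direction of the gene, with ACGTG or CACGT in capitals. The 3 higher genes shown are among the 4 of 10 that hold the core. The members with the largest rises, Hk2 (0.59), Gpi1 (0.49) and Pfkl (0.46), are not printed. The printed windows therefore do not show how often higher and lower members hold the core. A match is a stretch of letters and not a measured binding site.
Pgk1, chrX:106186850-106187099, plus strand: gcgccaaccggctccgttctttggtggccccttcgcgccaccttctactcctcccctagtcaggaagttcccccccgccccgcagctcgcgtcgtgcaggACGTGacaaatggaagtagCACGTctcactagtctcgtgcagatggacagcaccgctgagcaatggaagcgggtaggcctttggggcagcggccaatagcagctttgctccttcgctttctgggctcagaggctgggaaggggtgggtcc
Ldha, chr7:46845554-46845803, plus strand: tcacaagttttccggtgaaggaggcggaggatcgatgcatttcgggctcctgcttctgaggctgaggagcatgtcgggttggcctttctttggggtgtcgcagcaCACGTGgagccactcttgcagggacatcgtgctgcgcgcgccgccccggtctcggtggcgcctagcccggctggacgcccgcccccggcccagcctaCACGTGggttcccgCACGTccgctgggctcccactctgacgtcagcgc
Slc16a3, chr11:120948817-120949066, plus strand: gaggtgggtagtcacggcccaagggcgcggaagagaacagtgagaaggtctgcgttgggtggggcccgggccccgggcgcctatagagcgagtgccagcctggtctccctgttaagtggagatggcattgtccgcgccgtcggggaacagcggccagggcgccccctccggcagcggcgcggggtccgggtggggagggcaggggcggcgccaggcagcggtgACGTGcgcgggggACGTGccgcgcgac
Ldhb, chr6:142507958-142508207, minus strand: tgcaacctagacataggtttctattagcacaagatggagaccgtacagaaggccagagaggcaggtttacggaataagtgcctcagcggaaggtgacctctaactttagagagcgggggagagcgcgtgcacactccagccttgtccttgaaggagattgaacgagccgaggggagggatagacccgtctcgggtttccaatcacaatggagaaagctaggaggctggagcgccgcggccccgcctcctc
Slc2a6, chr2:27027999-27028248, minus strand: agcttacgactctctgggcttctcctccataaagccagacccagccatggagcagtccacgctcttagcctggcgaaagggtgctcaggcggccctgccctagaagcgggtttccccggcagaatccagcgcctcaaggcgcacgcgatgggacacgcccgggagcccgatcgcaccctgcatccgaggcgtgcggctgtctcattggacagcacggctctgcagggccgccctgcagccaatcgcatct
P4ha2, chr11:54100674-54100923, plus strand: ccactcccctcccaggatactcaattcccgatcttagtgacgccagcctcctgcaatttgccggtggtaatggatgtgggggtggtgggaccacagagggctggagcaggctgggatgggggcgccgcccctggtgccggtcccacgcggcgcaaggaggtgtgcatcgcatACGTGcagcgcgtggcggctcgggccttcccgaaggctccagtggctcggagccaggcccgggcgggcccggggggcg
The Pgk1 window has 2 matches, 127 to 150 bases before the start. The Ldha window has 5 matches in 3 stretches, including 2 copies of CACGTG, between 30 and 145 bases before the start. Slc16a3 has 2 matches within 27 bases of the start, and P4ha2 has 1. Ldhb and Slc2a6 have none, but hold 1 and 4 matches to GCGTG.

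Glucose enters macrophages mainly through GLUT1, the product of Slc2a1. Its level was 184, 177 and 181 CPM in the TpMo-derived and 161, 187 and 163 CPM in the Ly6Chi-derived libraries. The groups overlapped, and the log2 fold change of 0.09 had a 95% interval of -0.10 to 0.27 (adjusted p = 0.608). Slc2a6 (ENSMUSG00000036067.12) encodes GLUT6, a carrier found on lysosomes and induced in inflammatory macrophages. It stood at 7.80, 13.2 and 5.73 CPM in TpMo-derived libraries and at 30.8, 29.0 and 31.8 CPM in Ly6Chi-derived ones. The highest TpMo-derived value was below the lowest Ly6Chi-derived one, and Slc2a6 fell by 1.77 ± 0.28 on the log2 scale (SE, adjusted p = 0.00277), 3.42-fold. Per kilobase of exon, Slc2a6 made up 3.79% ± 1.48 of the summed level of 5 glucose carriers in TpMo-derived and 12.2% ± 0.92 in Ly6Chi-derived macrophages (SD, n = 3), whereas Slc2a1 made up 71.3% ± 4.03 and 62.1% ± 4.02.

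Hexokinases trap glucose in the cell by phosphorylating it, and the 3 members did not move together. Hk2, the isoform that HIF and inflammatory signals induce, was at 129, 84.6 and 105 CPM against 68.7, 73.9 and 69.4 CPM. Every TpMo-derived library lay above the Ly6Chi-derived ones, with the widest spread in the TpMo-derived group, and Hk2 rose by 0.59 ± 0.14 (adjusted p = 0.0238), 1.5-fold. Hk3, the isoform typical of myeloid cells, was at 639, 601 and 615 CPM against 769, 707 and 768 CPM. Here every TpMo-derived library was the lower one, and Hk3 fell by 0.28 ± 0.06 (adjusted p = 0.0135). Hk1, the widely expressed mitochondrial isoform, had overlapping groups, with 70.3 to 90.8 CPM against 89.6 to 108 CPM and a log2 fold change of -0.35 (95% interval -0.63 to -0.07, adjusted p = 0.105). Per kilobase, Hk3 was the most abundant, at 86.2% ± 1.75 of the hexokinase level in TpMo-derived and 89.6% ± 0.26 in Ly6Chi-derived macrophages, while the share of Hk2 was 9.09% ± 1.44 and 5.23% ± 0.46. The Hk2 call was lost without TpMo-derived replicate 1 or 3 or any Ly6Chi-derived replicate (adjusted p 0.0748 to 0.0977), the Hk3 call without Ly6Chi-derived replicate 1 or 3 or TpMo-derived replicate 3 (0.0542 to 0.0646), and Hk1 passed without TpMo-derived replicate 1 (0.0408).

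Gpi1 and Pfkl, which act directly after hexokinase, were both higher. Gpi1 (ENSMUSG00000036427.5), the isomerase that turns glucose phosphate into fructose phosphate, was at 618, 741 and 708 CPM against 521, 463 and 484 CPM. The groups did not overlap, and Gpi1 rose by 0.49 ± 0.08 (adjusted p = 0.0027), 1.41-fold. A further gene, Gm26762, lies on the opposite strand over 11.5% of the Gpi1 exon bases. Strand was ignored in counting, so reads that fell on both genes were left out. Pfkl (ENSMUSG00000020277.10), the liver isoform of phosphofructokinase and the committed step of the pathway, was at 408, 375 and 356 CPM against 256, 294 and 280 CPM. All TpMo-derived libraries were again higher, and Pfkl rose by 0.46 ± 0.08 (adjusted p = 0.00426), 1.37-fold. The platelet isoform Pfkp had 322 to 373 CPM against 290 to 319 CPM, with a log2 fold change of 0.17 (95% interval -0.00 to 0.34, adjusted p = 0.219). The muscle isoform Pfkm was low and overlapped, at 8.59 to 14.0 against 13.8 to 16.4 CPM (log2 fold change -0.37, adjusted p = 0.403). Summed per kilobase, the phosphofructokinases were 1.25 times as high in TpMo-derived macrophages, and the hexokinases 0.859 times as high. The Pfkl call was lost in a test against a 1.2-fold change (adjusted p = 0.0585).

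Aldolase cleaves the sugar, and its isoforms moved in opposite directions. Aldoa, the main isoform, was at 3467, 3325 and 3340 CPM against 2939, 2943 and 3051 CPM. The groups did not overlap, and Aldoa rose by 0.18 ± 0.04 (adjusted p = 0.0238), 1.13-fold. Aldoc (ENSMUSG00000017390.15), the brain-type isoform and a known HIF target, was at 18.7, 30.8 and 17.5 CPM against 46.3, 44.4 and 56.9 CPM. All TpMo-derived libraries were lower, and Aldoc fell by 1.14 ± 0.22 (adjusted p = 0.00855), 2.20-fold. Per kilobase it was 0.588% ± 0.20 of the aldolase level in TpMo-derived and 1.45% ± 0.16 in Ly6Chi-derived macrophages, so the total followed Aldoa. The Aldoa call was lost with library totals alone as the scaling (adjusted p = 0.0848) and without TpMo-derived replicate 1 or 3 or any Ly6Chi-derived replicate (0.0638 to 0.128).

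Among the members that rose, Pgk1 had the smallest adjusted p. Phosphoglycerate kinase makes ATP directly from a pathway intermediate, and Pgk1 is a standard HIF target. Pgk1 (ENSMUSG00000062070.12, X chromosome, 106187100 to 106203699 on GRCm38) was at 473, 496 and 530 CPM against 369, 363 and 374 CPM. All TpMo-derived libraries were above all others, and Pgk1, whose promoter window is printed above, rose by 0.44 ± 0.06 (adjusted p = 0.00148), 1.36-fold. The enzyme before it, Gapdh, overlapped between groups at 1543, 1902 and 1946 against 1692, 1695 and 1616 CPM (log2 fold change 0.11, 95% interval -0.07 to 0.29, adjusted p = 0.491). TpMo-derived replicate 1 was the lowest of all 6 libraries for Gapdh, and without it the gene passed (0.21, adjusted p = 0.0445). The enzyme after it, the phosphoglycerate mutase Pgam1, was at 327, 384 and 367 CPM against 448, 434 and 432 CPM. Pgam1 was the lower one in every TpMo-derived library and fell by 0.29 ± 0.07 (adjusted p = 0.0268), a direction opposite to its neighbours in the pathway. That call was lost without TpMo-derived replicate 1 or 3 or any Ly6Chi-derived replicate (adjusted p 0.0697 to 0.0881).

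The last steps to pyruvate are taken by enolase and pyruvate kinase. Eno1, the main enolase, was at 2641, 2463 and 2426 CPM against 2220, 2191 and 2269 CPM. The groups did not overlap, and Eno1 rose by 0.17 ± 0.05 (adjusted p = 0.0485). The value lies near the threshold, and the call was lost in 10 of 13 alternative settings, among them the omission of each library in turn (adjusted p 0.0586 to 0.213). Pkm, which encodes the muscle-type pyruvate kinases, was at 3921, 3623 and 3918 CPM against 3444, 3391 and 3658 CPM. The groups overlapped slightly, with a log2 fold change of 0.13 (95% interval 0.01 to 0.24, adjusted p = 0.154). Triosephosphate isomerase, Tpi1, had a log2 fold change of 0.15 (95% interval -0.00 to 0.29, adjusted p = 0.211), and the neuronal enolase Eno2, at 2.24 to 6.37 CPM, gave no usable direction (-0.11, 95% interval -1.23 to 1.00, adjusted p = 0.932).

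Of the 4 genes that make and carry lactate, 2 rose and 1 fell, beside 6.54% higher and 5.79% lower of all genes tested. Ldha (ENSMUSG00000063229.15), the subunit that favours lactate production, was at 3169, 3192 and 3371 CPM against 2821, 2749 and 2667 CPM. All TpMo-derived libraries were higher, and Ldha rose by 0.24 ± 0.05 (adjusted p = 0.00846), 1.18-fold. Ldhb (ENSMUSG00000030246.11), the heart-type subunit that favours the reverse reaction, was at 5.03, 7.94 and 5.12 CPM against 21.1, 26.9 and 20.4 CPM. The groups were far apart, and Ldhb fell by 1.92 ± 0.26 (adjusted p = 9.3e-04), 3.77-fold, the largest fold change among the tested members. These values rest on 118 to 214 counts per TpMo-derived library and 580 to 735 per Ly6Chi-derived one. Ldhb was 0.392% ± 0.11 of the lactate dehydrogenase level per kilobase in TpMo-derived and 1.72% ± 0.26 in Ly6Chi-derived macrophages. Slc16a3 (ENSMUSG00000025161.16) encodes MCT4, the export carrier of glycolytic cells and a HIF target, and was at 238, 242 and 229 CPM against 185, 169 and 183 CPM. The groups were apart, and Slc16a3 rose by 0.40 ± 0.07 (adjusted p = 0.00545), 1.32-fold. Slc16a1, which encodes the carrier MCT1, overlapped at 16.9 to 32.4 against 23.1 to 24.3 CPM (log2 fold change 0.16, 95% interval -0.36 to 0.69, adjusted p = 0.752). In a test against a 1.2-fold change, Ldha (adjusted p = 0.852) and Slc16a3 (0.12) lost their calls, and Ldha also without Ly6Chi-derived replicate 3 (0.0506).

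**Figure D2:**
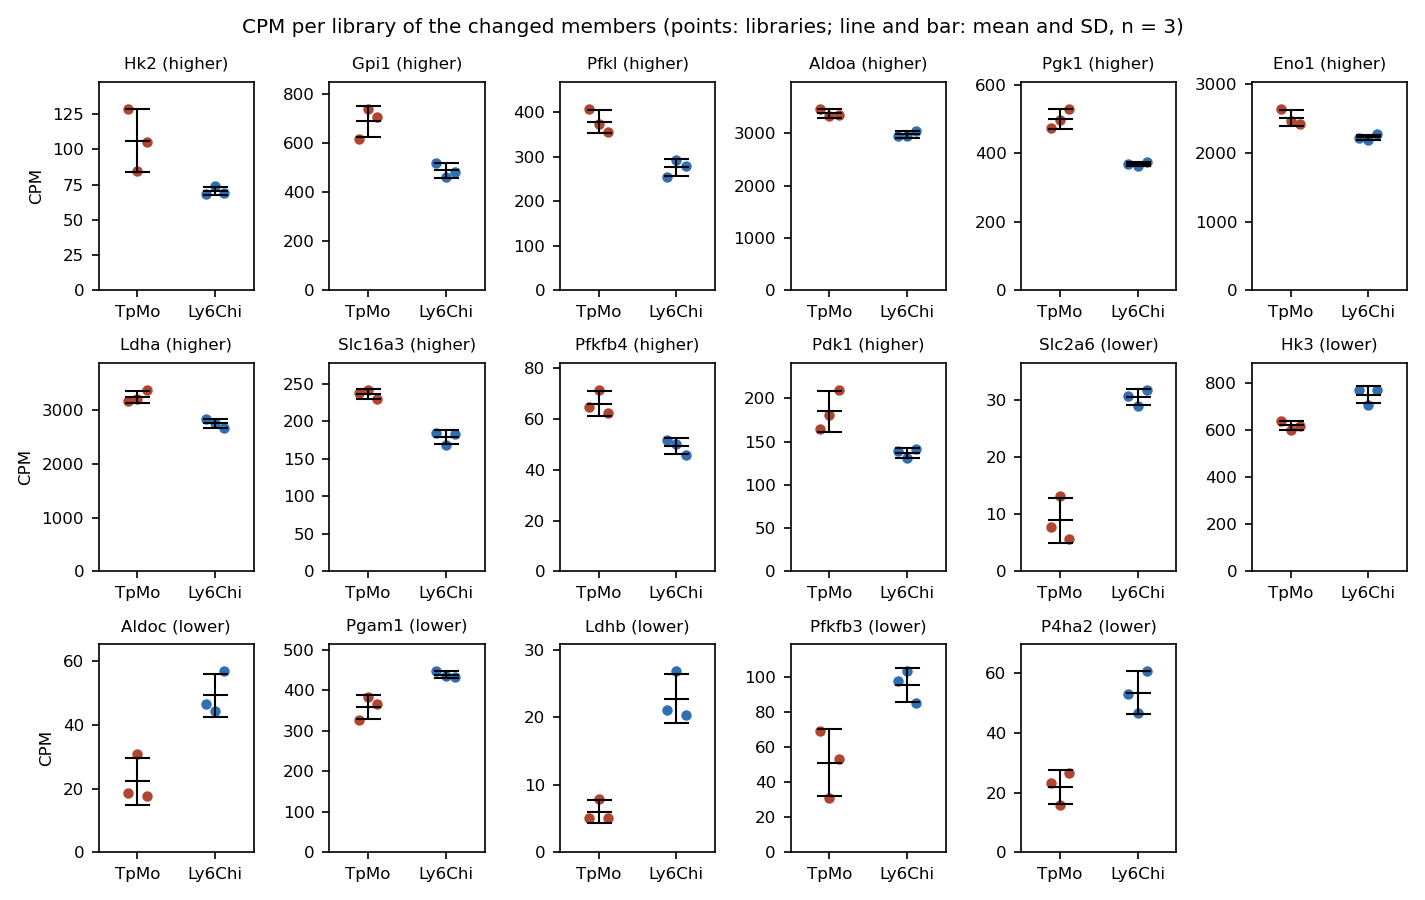
Level in CPM (linear axis, scaled for each gene) of each of the 17 changed members in every library, with 3 points per group. Points of the 2 groups do not overlap in any of them. Relative to the level of the gene, the widest gaps are those of Ldhb, at 5.03 to 7.94 against 20.4 to 26.9 CPM, and Slc2a6, at 5.73 to 13.2 against 29.0 to 31.8 CPM.

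Summed over the 22 enzymes and carriers, the level was 19054, 19065 and 19473 CPM in TpMo-derived and 17294, 16999 and 17310 CPM in Ly6Chi-derived libraries. The sum was thus higher in every TpMo-derived library, with a ratio of means of 1.12, and as a share of the counts of all genes tested, which does not depend on the TMM scaling, it was 1.88% to 1.89% against 1.72% to 1.78%, a ratio of 1.08. The 6 most abundant genes, Pkm, Aldoa, Ldha, Eno1, Gapdh and Tpi1, held 80.7% to 81.7% of it. Per kilobase of exon (RPKM), the order of levels in TpMo-derived macrophages was Aldoa at 1160 ± 26.7, Ldha at 980 ± 33.4, Pkm at 764 ± 34.2, Eno1 at 467 ± 21.4, Gapdh at 435 ± 53.5 and Tpi1 at 320 ± 20.7. Only Eno1 and Gapdh among these neighbours lay within each other's spread. In Ly6Chi-derived macrophages the same 6 led, from 1023 ± 21.8 RPKM for Aldoa to 289 ± 15.2 for Tpi1, but below them the order of Pgam1 and Pgk1 differed, at 221 ± 4.28 and 164 ± 2.50 RPKM, beside 181 ± 14.9 and 223 ± 12.6 in TpMo-derived macrophages.

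**Figure D3:**
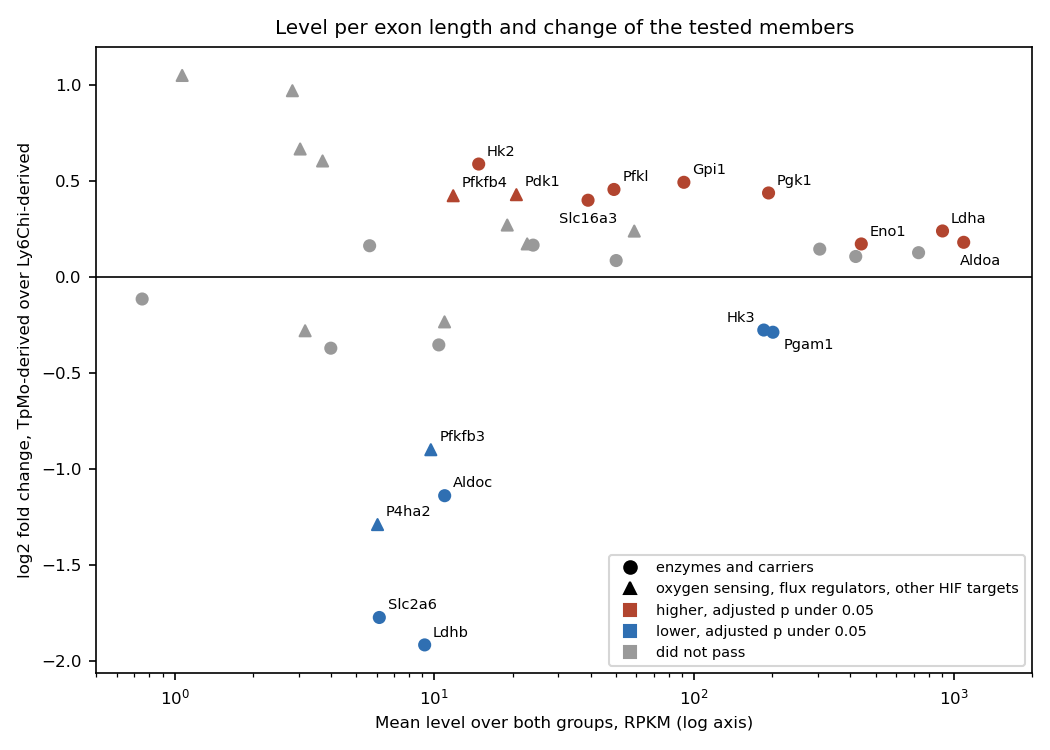
Log2 fold change of each tested member (y axis, TpMo-derived over Ly6Chi-derived) against its mean level in RPKM (x axis, log scale). The 7 most abundant members lie between -0.29 (Pgam1) and 0.24 (Ldha), whereas the falls of more than 1 log2 unit (Ldhb, Slc2a6, P4ha2 and Aldoc) are all at low levels.

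**Figure D4:**
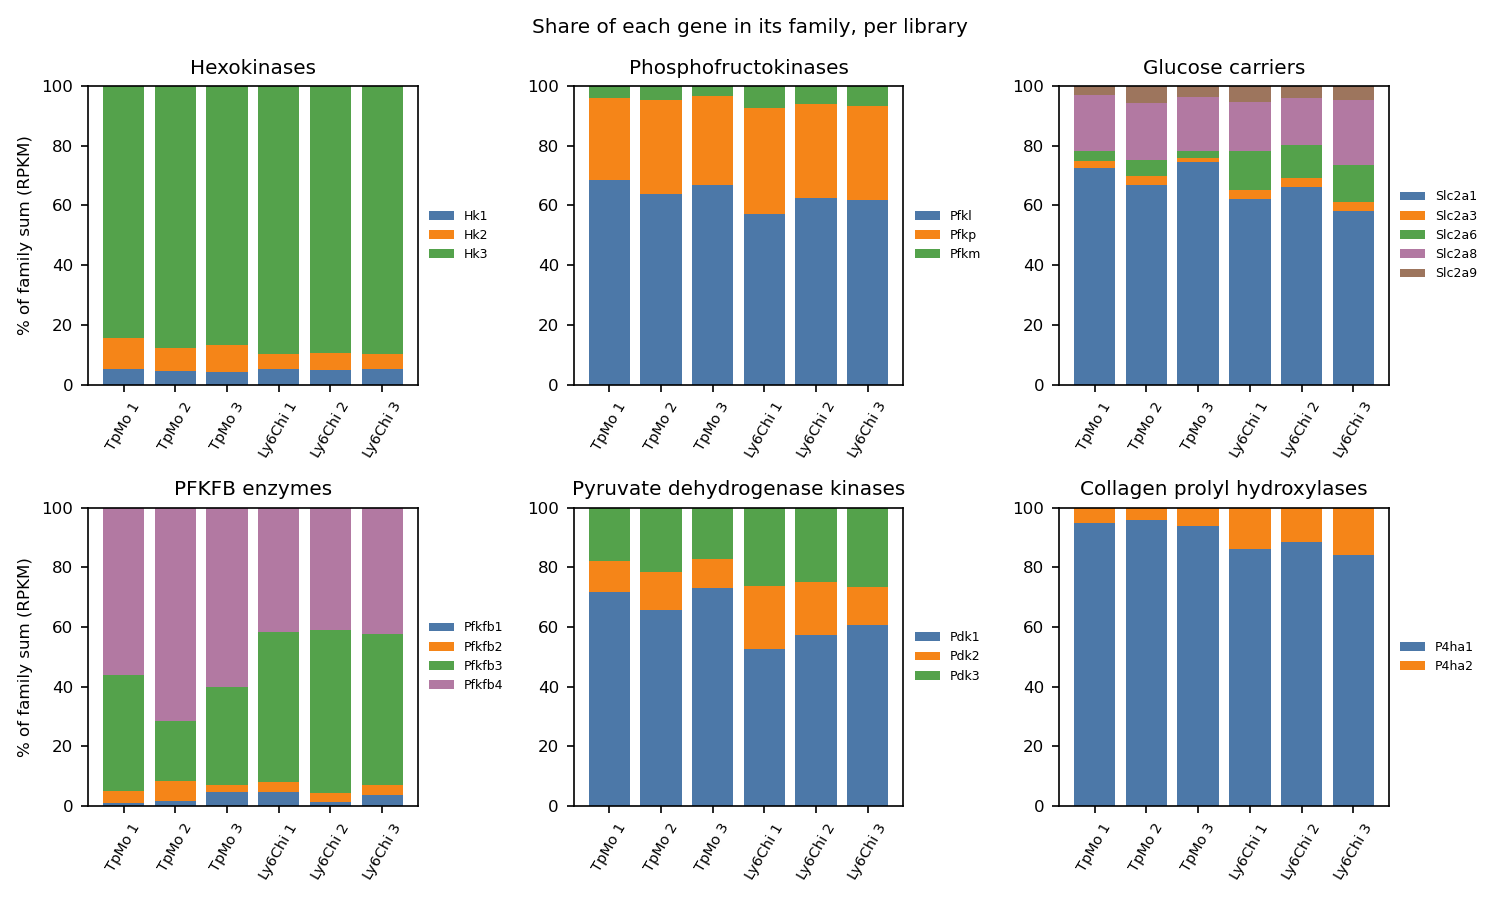
Share of each gene in the summed RPKM of its family, in percent, as a stacked bar for every library, with 3 libraries per group. The families are hexokinases, phosphofructokinases, glucose carriers, PFKFB enzymes, pyruvate dehydrogenase kinases and collagen prolyl hydroxylases. Hk2 makes up 7.62% to 10.5% of the hexokinases in TpMo-derived libraries, above the 4.94% to 5.76% in Ly6Chi-derived ones. P4ha2 makes up 4.08% to 6.12% of the collagen prolyl hydroxylases against 11.6% to 15.9%.

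Reads shared with other genes bear on several of these values. The deposited counts leave out reads that map to several places or fall on several genes, so a gene with near-identical copies, or one that overlaps another, loses reads. Of the 51-base windows in its transcripts, 53.8% in Pgk1 also occur in transcripts of other genes, and the share was 36.1% in Pgam1, 25.9% in Eno1, 25.4% in Pkm, 25.0% in Gapdh, 20.4% in Ldhb, 15.6% in Gpi1, 8.83% in Ldha and 6.13% in Aldoa. In Pkm and Gpi1 the gene that shares most windows overlaps it, Gm49759 over 15.3% and Gm26762 over 11.5% of the exon bases, and windows from overlap and from copies were not counted apart. The levels of these genes and their place in the order of levels are therefore uncertain. No window was shared in Slc2a6, Hk2, Hk3, Aldoc or Slc16a3, and 0.0149% were in Pfkl.

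Of the enzymes that set the flux, all 3 members changed, in mixed directions, beside 12.3% of all genes tested. Pfkfb3 and Pfkfb4 make the sugar bisphosphate that activates phosphofructokinase, and both are induced by HIF. Pfkfb3 was at 69.1, 31.0 and 53.2 CPM against 97.7, 104 and 85.1 CPM. It was lower in every TpMo-derived library, with a wide spread among them, and fell by 0.90 ± 0.24 (adjusted p = 0.0329), 1.87-fold. Pfkfb4 went the other way, at 64.5, 71.5 and 62.1 CPM against 51.9, 50.1 and 45.6 CPM. All TpMo-derived libraries were higher, and Pfkfb4 rose by 0.42 ± 0.12 (adjusted p = 0.0418), 1.34-fold. Pfkfb4 therefore made up 62.5% ± 8.03 of the PFKFB level per kilobase in TpMo-derived and 41.6% ± 0.60 in Ly6Chi-derived macrophages, and Pfkfb3 30.6% ± 9.62 and 52.0% ± 2.34, with a ratio of 0.897 for the family sum. Pdk1, the kinase that limits the conversion of pyruvate to acetyl-CoA by inhibiting pyruvate dehydrogenase, was at 164, 180 and 210 CPM against 139, 131 and 142 CPM. The groups did not overlap, and Pdk1 rose by 0.43 ± 0.10 (adjusted p = 0.0193), 1.35-fold. The Pfkfb4 call was lost whichever library was left out (adjusted p 0.0713 to 0.141) and with library totals alone as the scaling (0.0741). Those of Pfkfb3 (0.0708 to 0.115) and Pdk1 (0.0532 to 0.0884) were lost without TpMo-derived replicate 3 or any Ly6Chi-derived replicate, and Pfkfb3 also with no filter on counts (0.11).

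Of the 4 genes of the oxygen sensor, 0 passed with edgeR (adjusted p from 0.238 to 0.662), beside 12.3% of all genes tested. At that share, a count of 0 among 4 genes says little. Likewise, 0 had an unadjusted p under 0.05, and 0 passed with limma-voom or DESeq2. Hif1a, the inducible HIF subunit that is controlled mainly as a protein, was at 136, 127 and 164 CPM against 114, 134 and 132 CPM. The groups overlapped, with a log2 fold change of 0.17 (95% interval -0.08 to 0.42). Vhl, which recognises hydroxylated HIF, had a log2 fold change of -0.23 (95% interval -0.57 to 0.10), and the hydroxylase Egln1, at 7.61 to 17.6 CPM, one of -0.28 (-0.95 to 0.39). Egln3, the hydroxylase that HIF itself induces, was at 3.56, 3.16 and 4.82 CPM against 1.53, 1.10 and 2.92 CPM. Its TpMo-derived libraries all lay above the others, but at 30 to 116 counts per library the log2 fold change of 1.05 had a 95% interval of -0.07 to 2.17 (adjusted p = 0.238). The prolyl hydroxylase Egln2, from outside the set, made up 89.5% ± 2.53 of the level of the 3 enzymes per kilobase in TpMo-derived and 89.5% ± 3.64 in Ly6Chi-derived macrophages.

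Of the 7 other HIF targets, 6 were tested and 1 changed (16.7%), a share near the 12.3% of all genes. That was P4ha2 (ENSMUSG00000018906.14), a collagen prolyl hydroxylase subunit, at 23.2, 15.7 and 26.7 CPM against 53.0, 46.6 and 60.9 CPM. All TpMo-derived libraries were lower, and P4ha2 fell by 1.29 ± 0.20 (adjusted p = 0.00263), 2.44-fold. Its paralogue P4ha1, also a HIF target, had 272, 244 and 270 CPM against 219, 235 and 212 CPM. Here the TpMo-derived libraries lay above the others, and the log2 fold change was 0.24 (95% interval 0.07 to 0.41, adjusted p = 0.0737). P4ha1 passed with DESeq2 (adjusted p = 0.0322) and without TpMo-derived replicate 2 (0.0479). P4ha2 made up 5.18% ± 1.03 of the summed level of this pair per kilobase in TpMo-derived and 13.8% ± 2.20 in Ly6Chi-derived macrophages.

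The remaining targets had log2 fold changes above 0 and did not pass, or had too few counts. Ndrg1, a stress-response gene widely used as a hypoxia marker, was at 26.4, 33.4 and 28.8 CPM against 17.4, 23.1 and 17.8 CPM. The groups did not overlap, and the log2 fold change was 0.61 (95% interval 0.19 to 1.02, adjusted p = 0.0621), which passed with DESeq2 (0.0137), limma-voom (0.0491) and a filter of at least 5 CPM in 3 libraries (0.0409). Bnip3, a mitophagy receptor, had 44.7 to 50.8 CPM against 34.0 to 43.5 CPM (log2 fold change 0.27, 95% interval -0.04 to 0.59, adjusted p = 0.281), with 46.6% of its windows shared with other genes and another gene, Gm45507, over 22.3% of its exon bases. Ankrd37, a small ankyrin-repeat gene, whose exon bases are overlapped by other genes over 26.4%, was at 4.77 to 6.78 against 2.55 to 4.72 CPM (0.67, -0.13 to 1.46, adjusted p = 0.297). The adenylate kinase Ak4 overlapped at 24.8, 15.2 and 12.4 against 7.84, 14.0 and 4.97 CPM (0.97, 0.11 to 1.83, adjusted p = 0.151). Adm, the vasodilator peptide adrenomedullin, had too few counts to be tested, with 0, 14 and 6 counts in TpMo-derived and 0, 0 and 2 in Ly6Chi-derived libraries.

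Genes next to the pathway were counted from lists drawn up for this comparison. Of 95 such genes, 80 were tested, 5 were higher and 8 were lower in TpMo-derived macrophages (16.3% changed, beside 12.3% of all genes), with a median log2 fold change of -0.01. The 13 that changed became 8 without Ly6Chi-derived replicate 1 or 2. Among 23 further glycolysis genes, 16 were tested and 1 changed, the ADP-dependent kinase Adpgk, at 139 ± 14.6 against 90.9 ± 12.1 CPM (log2 fold change 0.61 ± 0.12, adjusted p = 0.00872, and 0.052 without Ly6Chi-derived replicate 2). Basigin (Bsg), the chaperone of the lactate carriers, had a log2 fold change of 0.11 (adjusted p = 0.345), and Txnip, an inhibitor of glucose uptake, one of 0.36 (adjusted p = 0.0546). Txnip passed with limma-voom (0.0446), with DESeq2 (0.0158), with no count filter (0.0154), with the filter of at least 5 CPM (0.0244) and without TpMo-derived replicate 1 (0.0447). Among isoforms known from other tissues, Slc2a4, Pgk2, Pklr and Ldhc were at 0 counts in all libraries.

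Genes that lead glucose carbon into other pathways were counted in the same way. Of 19 genes of the pentose phosphate pathway and glycogen metabolism, all tested, 4 were lower and 0 were higher with edgeR, beside 5.79% lower and 6.54% higher of all genes, and the median log2 fold change was 0.03. At such shares, a count of 0 among 19 genes says little. At an unadjusted p under 0.05 there were 5 lower and 1 higher, and limma-voom and DESeq2 each gave 5 lower and 0 higher. The transaldolase Taldo1 was at 527 ± 31.9 against 691 ± 58.0 CPM and fell by 0.39 ± 0.08 (adjusted p = 0.00796). In glycogen metabolism, the phosphorylase Pygl fell by 0.62 ± 0.15 (adjusted p = 0.0236) and Ugp2, which makes UDP-glucose, by 0.33 ± 0.08 (0.0243). Pgm2, a mutase of sugar phosphates in the same list, fell by 0.60 ± 0.17 (0.0443). The Pygl call was lost without TpMo-derived replicate 1 or 3 or Ly6Chi-derived replicate 1 or 2 (adjusted p 0.0562 to 0.0951), that of Ugp2 without replicate 1 or 2 of either group (0.0527 to 0.0805), and that of Pgm2 without any library but TpMo-derived replicate 2 (0.0632 to 0.172). The dehydrogenase Pgd had a log2 fold change of -0.28 (adjusted p = 0.0882), and the transketolase Tkt one of 0.03 (adjusted p = 0.885). Of 12 genes that take pyruvate to acetyl-CoA, 11 were tested and 1 changed (9.09%, below the 12.3% of all genes), the mitochondrial pyruvate carrier Mpc1. It fell by 0.73 ± 0.20 (adjusted p = 0.0403, and 0.0635 to 0.126 with each library left out in turn). The pyruvate dehydrogenase subunits Pdha1 and Pdhb both had a log2 fold change of -0.08 (adjusted p = 0.668 and 0.632).

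Of 30 further HIF targets 25 were tested, 4 were higher and 3 were lower (28% changed), beside 6.54% higher, 5.79% lower and 12.3% changed of all genes. Of 11 further genes of the HIF pathway itself 9 were tested and 0 changed with edgeR, with 0 at an unadjusted p under 0.05 and 0 with limma-voom or DESeq2. With 12.3% of all genes changed, a count of 0 among 9 genes says little. The transferrin receptor Tfrc, which takes up iron, was at 279.3 ± 25.6 against 138 ± 4.14 CPM and rose by 1.02 ± 0.08 (adjusted p = 5.13e-05). Lox, a collagen cross-linking enzyme, was at 3.93 ± 1.01 CPM in TpMo-derived libraries, with 333 counts in all, and at 0 counts in all Ly6Chi-derived ones, at least 37.8-fold higher against a floor of 3 counts per library (adjusted p = 7.31e-04). The transcription repressor Bhlhe40 fell by 2.10 ± 0.22 (18.1 ± 6.07 against 77.6 ± 9.99 CPM, adjusted p = 2.24e-04), and the mitophagy receptor Bnip3l fell by 0.70 ± 0.10 (84.3 ± 5.80 against 137 ± 9.09 CPM, adjusted p = 0.00122). Bnip3l stands beside its paralogue Bnip3, whose log2 fold change was 0.27 and did not pass. Anxa2, an annexin, had a log2 fold change of 0.11 (adjusted p = 0.198) and Tpd52 one of -0.12 (adjusted p = 0.371). The other 3 targets that changed, named after their values were seen, were the lysyl hydroxylase Plod1 (0.62 ± 0.09, adjusted p = 0.00144), the arginase Arg1 (2.16 ± 0.58, 0.0377, and 0.104 to 0.148 without replicate 1 or 3 of either group, and 0.0552 with limma-voom) and the Myc antagonist Mxi1, which fell by 1.53 ± 0.26 (0.00404). In the HIF pathway, the abundant genes Egln2 and Cul2 had log2 fold changes of 0.07 and -0.06 (adjusted p = 0.784 and 0.849).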

How the data were processed

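The authors deposited 1 table of raw read counts per gene for 6 SMART-seq v2 libraries. Per the file headers, featureCounts 1.6.3 counted reads over exons of GENCODE M22 with no option for pairs, strand, multi-mapped reads or overlapping genes. The defaults of that program count each mate of a pair by itself, ignore strand, and drop multi-mapped reads and reads shared by overlapping genes. STAR and GRCm38 come from the submitters' processing notes, without a version for the aligner. GENCODE M21, also on GRCm38, gave symbols for 55394 of 55487 identifiers, and 93 did not match.

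Genes that passed filterByExpr (minimum count 10, minimum total 15) were scaled by TMM and tested with the robust quasi-likelihood test of edgeR 4.0.16 in R 4.3.3, with group as the only term. Benjamini-Hochberg adjustment ran over the 13140 genes tested. Log2 fold changes are TpMo-derived over Ly6Chi-derived. Each standard error is the fold change divided by the square root of its F statistic, and intervals are at 95%. RPKM values were computed from CPM and the deposited exon length. Values after ± are SE for fold changes and SD over 3 libraries for levels and shares. The floor of 3 counts covers counting error only, and mates counted separately make that error look smaller than it is.

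Replicates were numbered in accession order. Pairs of libraries were checked for copies: the chi-square statistic per degree of freedom was 22.1 to 36.5 within groups and 98.2 to 152 between them, so none was a copy of another. Alternatives were RLE factors, library totals alone, other count filters, glmTreat against a 1.2-fold change, limma-voom (limma 3.58.1), DESeq2 1.42.0 and the omission of each library. The fitting script was tested on simulated data. All members are described. From each neighbouring list the text names up to 4 changed genes with the smallest p and the 2 most abundant that did not pass. The members and lists were chosen with earlier results of these data known. The isoform families, the promoter windows, the search for shared 51-base windows and the background at 100 CPM were chosen after values had been seen.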

Additional observations from a re-analysis of the deposited data

How the results depend on the processing

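Under 13 alternatives, 6 of the 17 changed members kept their call in each (Aldoc, Gpi1, Ldhb, P4ha2, Pgk1 and Slc2a6), and all 17 kept their direction. Of the 18 tested members that did not pass, 14 passed in none, and Hk1, Gapdh, Ndrg1 and P4ha1 passed in at least 1. With glmTreat against a 1.2-fold change, 876 genes changed in all, 5 of the enzymes and carriers, 1 of the other members and 7 of the neighbouring lists. The 11 members that lost their calls in that test were Hk2, Hk3, Pfkl, Aldoa, Pgam1, Eno1, Ldha, Slc16a3, Pfkfb3, Pfkfb4 and Pdk1. When each library was left out in turn, the counts were 976 to 1492 genes in all, 7 to 12 enzymes and carriers, 1 to 4 other members and 8 to 12 genes of the neighbouring lists. These fits hold fewer samples. DESeq2 called 2383 genes, 13 enzymes and carriers, 6 other members and 18 genes of the neighbouring lists.

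Among the members and the named neighbours, direction turned in 6 that did not pass. Their log2 fold changes with 1 library left out ran from -0.38 to 0.54 in Eno2, from -0.015 to 0.40 in Slc16a1, from -0.44 to 0.044 in Egln1, from -0.049 to 0.13 in Tkt, from -0.019 to 0.14 in Egln2 and from -0.25 to 0.031 in Cul2. Eno2 also had 0.032 with limma-voom, and Tkt -0.016 with library totals alone. The cause was not tested. Eno2, Egln3 and Ankrd37 fell out of the filter of at least 5 CPM in 3 libraries. No paired analysis was possible because the labels carry no replicate numbers. With 3 libraries a group, intervals of low members such as Egln3, Ak4 and Ankrd37 span more than a doubling, and Adm lies below the depth needed for a test.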
